A study of Mus musculus with 4 samples.

Results

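The 10 genes described here are Bcl6, Tox2, Cxcr5, Pdcd1, Icos, Slamf6, Sh2d1a, Il21, Il4 and Sostdc1, a group associated with follicular regulatory T cells. They were chosen by symbol, and each had 1 row among the 24061 gene rows of the count table. All 10 passed the filter on low counts, which kept 13022 genes. The genes were picked with earlier results from these libraries known, so the group as a whole was given no p-value.

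RNA was sequenced from effector regulatory T cells sorted from Peyer's patches, the lymphoid follicles in the wall of the small intestine, as CD4+ FoxP3+ cells. The 4 libraries were labelled flox 2, flox 1, wt 2 and wt 1. The libraries labelled flox were described as Mafflox/floxFoxP3-YFP-cre, with both alleles of Maf floxed, and those labelled wt as Maf+/+FoxP3-YFP-cre. All mice were 13 weeks old, on a C57BL/6 background at backcross N5, and all carried FoxP3-YFP-cre, a recombinase made with a fluorescent reporter from Foxp3, so that deletion is directed to cells that express Foxp3. Nothing in the labels ties the 2 libraries of a genotype to separate mice. Every p-value below therefore measures the spread among these libraries alone, and some of it may be technical. The comparison stated by the labels asks which transcripts differ when Maf, the gene of the transcription factor c-Maf, is deleted in regulatory T cells.

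Follicular regulatory T cells are Foxp3-expressing cells that take on part of the programme of follicular helper T cells, enter B cell follicles and restrain the germinal centre reaction. The factor Bcl6 sets up this programme, the chemokine receptor Cxcr5 guides the cells into the follicle, and contacts through Icos, Pdcd1 and receptors of the SLAM family tune the exchange with B cells. Peyer's patches hold germinal centres continuously because of the gut microbiota, and c-Maf is known as a factor of both follicular T cells and intestinal regulatory T cells.

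The targeted gene did not follow the labels. Maf had 15 counts in flox 2 and 40 counts in wt 2, against 2975 counts in flox 1 and 3071 counts in wt 1. It was therefore low in both libraries numbered 2 and high in both numbered 1, which goes against the genotype given for wt 2 and for flox 1. Each library keeps its label as its name, and a direction between libraries numbered 2 and libraries numbered 1 is one between Maf-low and Maf-high libraries, not between labelled genotypes. This grouping was chosen with the Maf counts known, so Maf was not tested. The number cannot be told apart from any other feature shared by libraries of 1 number.

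Counts per library ranged from 19368745 to 24687897 over gene rows, and levels are given as CPM, counts scaled to a common library size after TMM, the trimmed mean of M-values. Changes are log2 fold changes with standard errors (SE) from edgeR's quasi-likelihood test, libraries numbered 2 over libraries numbered 1, and a gene passed with a Benjamini-Hochberg adjusted p under 0.05 over all tested genes. Foxp3, the gene that defines regulatory T cells, had 104 CPM in flox 2 and 104 CPM in wt 2, against 91.0 CPM in flox 1 and 93.8 CPM in wt 1. The heat shock list stood highest in flox 2, with a summed 9347 CPM in flox 2 and 2943 CPM in wt 2, against 3495 CPM in flox 1 and 2919 CPM in wt 1. For Bcl6, Pdcd1, Icos, Il4 and Sostdc1 the change without that library is given below. A fit without a library has no replicate in that library's group, so its spread comes from the other group alone. Calls that such a fit adds are no support for a difference. In sorted bulk RNA, fewer cells of a follicular kind and less RNA per cell cannot be told apart.

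Of the 10 follicular genes, Tox2, Cxcr5, Sh2d1a and Il21 fell in the Maf-low libraries and no member passed in the higher direction. Over all tested genes, 1.81% passed, 1.41% lower and 0.399% higher. Bcl6, Pdcd1 and Icos also lay lower in both Maf-low libraries than in either Maf-high library, without passing. This made 7 of 10 members with groups that did not overlap in the lower direction, where 22.5% of all tested genes had that order and 22.7% the reverse order. Slamf6, Il4 and Sostdc1 had overlapping groups. The median log2 fold change of the members was -0.83, and that of all tested genes was 0.01. The count of 4 members was 1 without wt 1, 3 without flox 1, 7 without wt 2 and 8 without flox 2, while the count over all tested genes was 236, or 46, 116, 525 and 504 without these libraries.

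**Figure D1:**
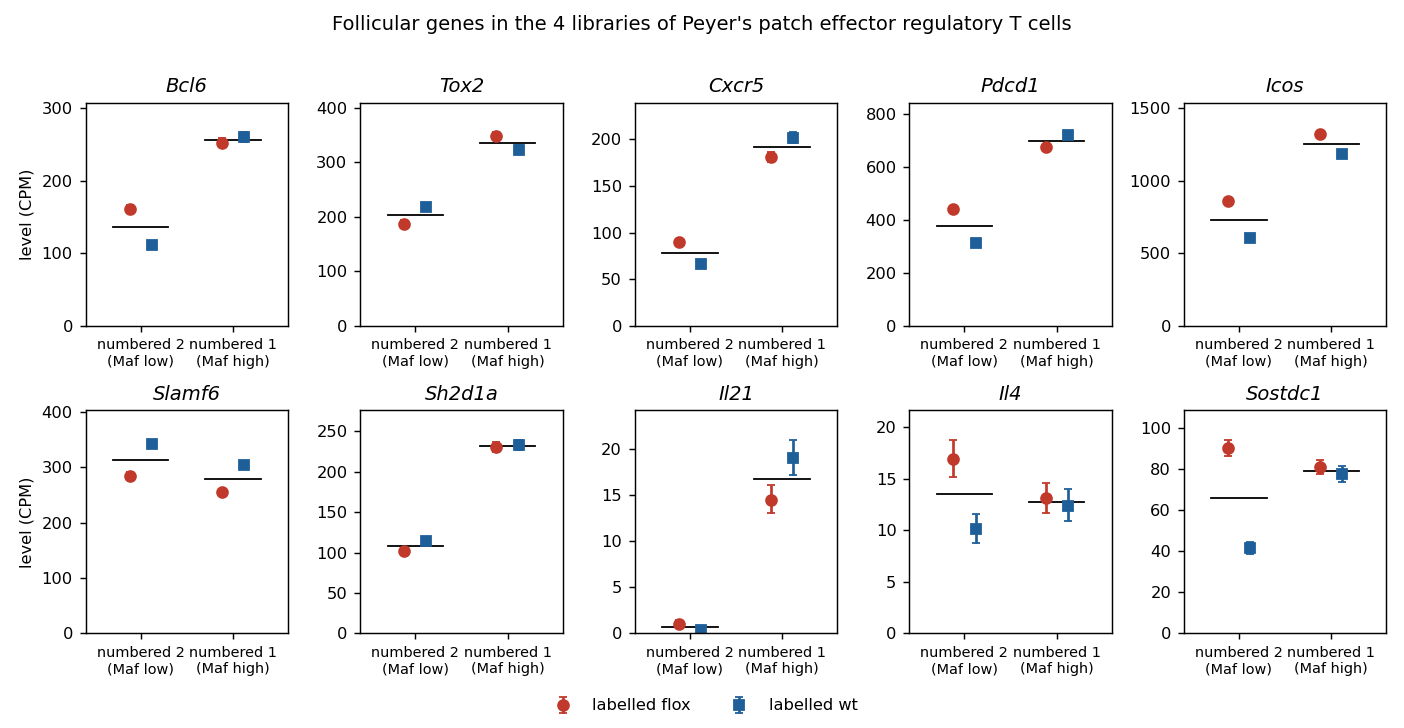
Level of each of the 10 follicular genes in CPM (linear axes from 0) in the libraries numbered 2, where Maf is low, and numbered 1, where Maf is high. Circles are libraries labelled flox, squares those labelled wt, bars on points are 95% Poisson intervals of the count, and horizontal lines are means of 2 libraries. In 7 panels both points on the left lie below both on the right, and in the panels of Slamf6, Il4 and Sostdc1 the groups overlap.

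Bcl6 encodes the zinc finger repressor that defines follicular T cells (chromosome 16, 23965052 to 23988852, minus strand, GRCm38). It had 162 CPM in flox 2 and 111 CPM in wt 2, against 253 CPM in flox 1 and 260 CPM in wt 1. The Maf-high libraries lay close together and the Maf-low ones spread apart, with flox 2 nearer to the Maf-high level. Means were 136 ± 35.9 CPM in Maf-low and 256 ± 5.48 CPM in Maf-high libraries (SD, n = 2 each), and the change of -0.91 (SE 0.18) had an adjusted p of 0.089. It passed in DESeq2 (adjusted p = 2.88e-05), and its change was -0.66 without wt 2 and -1.21 without flox 2. Without a Maf-low library the spread comes from the close Maf-high pair.

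Tox2, an HMG-box factor of follicular T cells, lies on chromosome 2 (163203125 to 163324170, plus strand). Its level was 187 CPM in flox 2 and 217 CPM in wt 2, against 348 CPM in flox 1 and 323 CPM in wt 1. Unlike Bcl6, the lowest value was that of flox 2. Tox2 fell by 0.73 on the log2 scale (SE 0.10, adjusted p = 0.0256), with means of 202 ± 21.3 CPM in Maf-low and 336 ± 17.5 CPM in Maf-high libraries (SD, n = 2 each). The call was lost without wt 1 (adjusted p = 0.127) and without flox 1 (adjusted p = 0.117).

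Cxcr5, the receptor for the follicular chemokine Cxcl13, lies on chromosome 9 (44511787 to 44561877, minus strand). It had 89.4 CPM in flox 2 and 65.9 CPM in wt 2, against 181 CPM in flox 1 and 202 CPM in wt 1. No Maf-low library came near the lower Maf-high one. Cxcr5 fell by 1.30 (SE 0.16, adjusted p = 0.0170) on the log2 scale, and its Maf-low mean of 77.7 ± 16.6 CPM was 40.5% of the Maf-high mean of 192 ± 14.5 CPM (SD, n = 2 each). Without wt 1 the adjusted p was 0.109. The annotated gene overlaps that of Bcl9l by 110 bases, and Bcl9l had 20.2 CPM in flox 2 and 13.6 CPM in wt 2, against 19.3 CPM in flox 1 and 25.4 CPM in wt 1. Whether counting used strand is not stated.

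Pdcd1 encodes the inhibitory receptor PD-1, and Icos encodes a costimulatory receptor that follicular T cells need. Both are on chromosome 1, Pdcd1 at 94038305 to 94052553 on the minus strand and Icos at 60977927 to 61000320 on the plus strand. Pdcd1 had 441 CPM in flox 2 and 312 CPM in wt 2, against 676 CPM in flox 1 and 720.1 CPM in wt 1. Icos had 858 CPM in flox 2 and 608 CPM in wt 2, against 1323 CPM in flox 1 and 1183 CPM in wt 1. For both genes wt 2 was the lowest library and flox 2 stood between it and the Maf-high pair.

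The changes of Pdcd1 and Icos did not pass. Pdcd1 averaged 377 ± 91.0 CPM in Maf-low and 698 ± 31.0 CPM in Maf-high libraries (SD, n = 2 each), a change of -0.89 (SE 0.17, adjusted p = 0.0804). Icos averaged 733 ± 177 CPM in Maf-low and 1253 ± 99.4 CPM in Maf-high libraries (SD, n = 2 each), a change of -0.77 (SE 0.17, adjusted p = 0.139). For both genes the Maf-low libraries lay farther apart than the Maf-high ones. Pdcd1 passed in DESeq2 (adjusted p = 5.12e-06), and its change was -0.66 without wt 2 and -1.16 without flox 2. Icos passed in DESeq2 (adjusted p = 0.000154) and with the genotype label as a block (0.0336). The change of Icos was -0.54 without wt 2 and -1.04 without flox 2.

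Slamf6, a SLAM family receptor that binds itself on a neighbouring cell (chromosome 1, 171917515 to 171953170, plus strand), had overlapping groups by number. It had 283 CPM in flox 2 and 342 CPM in wt 2, against 254 CPM in flox 1 and 304 CPM in wt 1. Both libraries labelled wt lay above both labelled flox. Its change by number was 0.16 (SE 0.13, adjusted p = 0.675), and means were 312 ± 41.4 CPM in Maf-low and 279 ± 35.1 CPM in Maf-high libraries (SD, n = 2 each).

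Sh2d1a encodes SAP, the adaptor through which SLAM receptors signal, and lies on chromosome X (42502453 to 42529330, plus strand). It had 102 CPM in flox 2 and 114 CPM in wt 2, against 231 CPM in flox 1 and 233 CPM in wt 1. The 2 libraries of each Maf level were close to each other and the pairs were far apart. Sh2d1a fell by 1.10 (SE 0.09, adjusted p = 0.00483), with means of 108 ± 8.15 CPM in Maf-low and 232 ± 1.53 CPM in Maf-high libraries (SD, n = 2 each). With each library left out in turn, its change stayed between -1.18 and -1.02. Its annotation overlaps that of Tenm1 by 1465 bases, and Tenm1 had 0 counts in flox 2 and 4 in wt 2, against 0 in flox 1 and 2 in wt 1.

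Of the secreted members, Il21 passed and Il4 and Sostdc1 did not. Il21 encodes the helper cytokine that drives germinal centre B cells and lies on chromosome 3 (37222759 to 37232636, minus strand). It had 20 counts in flox 2 and 7 counts in wt 2, against 353 counts in flox 1 and 391 counts in wt 1. In CPM these were 0.967 in flox 2 and 0.346 in wt 2, against 14.5 in flox 1 and 19.0 in wt 1. Il21 was nearly lost from both Maf-low libraries and had the largest change among the 10 members.

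Il21 fell by 4.65 on the log2 scale (SE 0.46, adjusted p = 0.00874), with means of 0.657 ± 0.439 CPM in Maf-low and 16.7 ± 3.22 CPM in Maf-high libraries (SD, n = 2 each). Without wt 1 the adjusted p was 0.0630, at a change of -4.44. Its Maf-high mean was 25.5 times its Maf-low mean, and the small counts leave wide intervals. The level within flox was 0.0669 times as high in flox 2 as in flox 1 (95% exact binomial interval 0.0404 to 0.105), and within wt 0.0182 times as high in wt 2 as in wt 1 (0.00727 to 0.0379). Intervals cover counting error only.

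Il4, the type 2 cytokine that follicular T cells also use to help B cells, lies on chromosome 11 (53602982 to 53618669, minus strand). It had 16.9 CPM in flox 2 and 10.1 CPM in wt 2, against 13.1 CPM in flox 1 and 12.3 CPM in wt 1. The Maf-high values lay between the Maf-low ones. The change by number was 0.09 (SE 0.27, adjusted p = 0.942), with means of 13.5 ± 4.84 CPM in Maf-low and 12.7 ± 0.537 CPM in Maf-high libraries (SD, n = 2 each). It turned to -0.33 without flox 2.

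Sostdc1 encodes a secreted antagonist of BMP and Wnt signalling that has been linked to a subset of follicular T cells (chromosome 12, 36314139 to 36318452, plus strand). It had 90.3 CPM in flox 2 and 41.7 CPM in wt 2, against 81.0 CPM in flox 1 and 77.6 CPM in wt 1. Of the 4 libraries, wt 2 alone was low. Means were 66.0 ± 34.4 CPM in Maf-low and 79.3 ± 2.46 CPM in Maf-high libraries (SD, n = 2 each). The change was -0.26 (SE 0.39, adjusted p = 0.848), and it turned to 0.19 without wt 2 and to -0.93 without flox 2.

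The sequences just upstream of Il21 and Il4 are shown because c-Maf is known to act at cytokine promoters, the Il4 promoter among them, and because Il21 passed by number and Il4 did not, although the difference between their changes was not tested. Windows of 250 bases ending at the annotated start were taken from RefSeq (GRCm38.p6), which held 12 windows for 6 of the 10 members (Pdcd1, Slamf6, Tox2, Il21, Il4 and Bcl6). They were searched on both strands for TGCTGAC, one arm of the Maf recognition element, and for its shorter core TGCTGA, which lies within it. The printed windows are Il21 at chr3:37232637-37232886 and Il4 at chr11:53618666-53618915, both on the minus strand and written 5′ to 3′ in the direction of the gene. Capitals mark TGCTGA or its reverse complement.
Il21: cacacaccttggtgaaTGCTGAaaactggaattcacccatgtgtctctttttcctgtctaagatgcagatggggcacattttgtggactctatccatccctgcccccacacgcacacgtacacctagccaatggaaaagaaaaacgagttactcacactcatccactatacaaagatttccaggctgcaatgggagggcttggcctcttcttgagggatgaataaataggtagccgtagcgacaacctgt
Il4: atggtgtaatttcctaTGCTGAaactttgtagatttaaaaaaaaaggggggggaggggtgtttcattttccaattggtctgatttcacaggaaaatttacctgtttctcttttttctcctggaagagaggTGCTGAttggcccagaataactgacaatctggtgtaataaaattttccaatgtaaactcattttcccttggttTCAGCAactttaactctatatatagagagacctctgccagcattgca

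The Il21 window held the core once, with its first base 234 bases upstream of the start, on the strand of the gene. The printed Il4 window held it at 234 and 120 bases on the strand of the gene and at 47 bases on the other strand. Another Il4 window, at chr11:53617339-53617588, did not hold the core. No window of a member held TGCTGAC, which was present in 3.81% of 32851 mouse windows of the same length, and 2 of the 12 windows of members held the core, which 16.1% of all windows held. A match of letters is a description, and no match says only that these letters are not in the window.

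Set per kilobase of exon in the GENCODE annotation of GRCm38, the most abundant members were Icos and Pdcd1. Icos had a mean of 214 CPM per kb in Maf-low and 365 CPM per kb in Maf-high libraries, and Pdcd1 had 195 CPM per kb in Maf-low and 362 CPM per kb in Maf-high libraries. These 2 genes did not differ beyond their spread at either Maf level. Tox2 came next with 59.5 CPM per kb in Maf-low and 98.7 CPM per kb in Maf-high libraries. Il21 was lowest, with 0.125 CPM per kb in Maf-low and 3.18 CPM per kb in Maf-high libraries, and Il4 was second lowest, with 11.0 CPM per kb in Maf-low and 10.4 CPM per kb in Maf-high libraries.

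The order of the other levels per kilobase was as follows. In Maf-low libraries it was Sostdc1 (37.1 CPM per kb), Slamf6 (28.8), Cxcr5 (23.3), Bcl6 (20.3) and Sh2d1a (19.6). In Maf-high libraries it was Cxcr5 (57.5 CPM per kb), Sostdc1 (44.5), Sh2d1a (42.1), Bcl6 (38.3) and Slamf6 (25.8). In Maf-low libraries the ranges of Sostdc1, Slamf6 and Cxcr5 overlapped, as did those of Cxcr5, Bcl6 and Sh2d1a and those of Sostdc1 and Bcl6. In Maf-high libraries no 2 of these 5 genes overlapped. Exon lengths are unions over transcripts, so a gene with long alternative exons, such as Slamf6, is placed low.

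**Figure D2:**
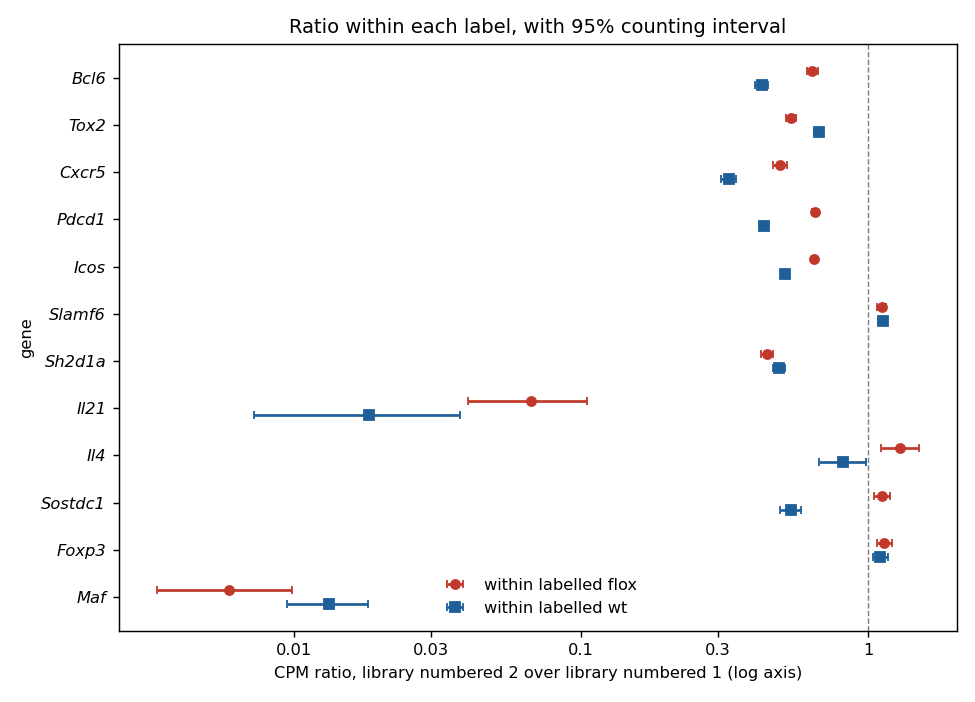
Ratio of CPM in the library numbered 2 to the library numbered 1 (log axis) within labelled flox (circles) and within labelled wt (squares), with 95% exact binomial intervals for counting error. Below the 10 follicular genes stand Foxp3 and Maf for scale. The points of 7 members lie left of 1 in both labels, with Il21 farthest left of the members at 0.0669 and 0.0182, and those of Il4 and Sostdc1 lie on both sides of 1.

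Each label holds 1 Maf-low and 1 Maf-high library, so the ratio can be read inside a label, with no replicate check. Cxcr5 in flox 2 was 0.493 times its level in flox 1 (95% interval 0.467 to 0.521), and in wt 2 it was 0.327 times its level in wt 1 (0.307 to 0.347). Bcl6 had ratios of 0.640 within flox (0.613 to 0.667) and 0.425 within wt (0.405 to 0.447). For these genes the difference within wt was the wider one.

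The same held for Pdcd1, with ratios of 0.652 within flox and 0.433 within wt, and for Icos, with 0.648 within flox and 0.514 within wt. Tox2 and Sh2d1a had the opposite order, with ratios of 0.538 and 0.443 within flox and 0.673 and 0.489 within wt. In all, 7 of 10 members had a higher ratio within flox than within wt, as did 108 of the 184 genes that passed lower (58.7%). Only 4 of the members are among those 184 genes, and the share over all tested genes was not counted. Slamf6 had nearly equal ratios of 1.11 within flox and 1.12 within wt.

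By labelled genotype, flox over wt, none of the 10 members passed (adjusted p = 1.00 for each in edgeR's quasi-likelihood test), and none had an unadjusted p under 0.05, which 1.98% of all tested genes had. DESeq2 and limma-voom also called 0 members. Over all tested genes 0.00768% passed, which was 1 gene. Slamf6 was lower in both libraries labelled flox, and Il4 and Sostdc1 were higher, while 7 members overlapped. In this order, 13.8% of all tested genes lay apart lower and 13.2% lay apart higher.

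The label comparison gave Bcl6 207 ± 64.3 CPM in flox and 185 ± 106 CPM in wt (SD, n = 2 each), a change of 0.16 (SE 0.48). Cxcr5 had 135 ± 65.0 CPM in flox and 134 ± 96.1 CPM in wt, a change of 0.02 (SE 0.66). Il21 had 7.71 ± 9.54 CPM in flox and 9.68 ± 13.2 CPM in wt, a change of -0.32 (SE 2.03). Each label holds a Maf-low and a Maf-high library, and the spread within a label exceeded the difference between labels for these genes. Slamf6 was 269 ± 20.3 CPM in flox and 323 ± 26.6 CPM in wt, a change of -0.26 (SE 0.12).

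**Figure D3:**
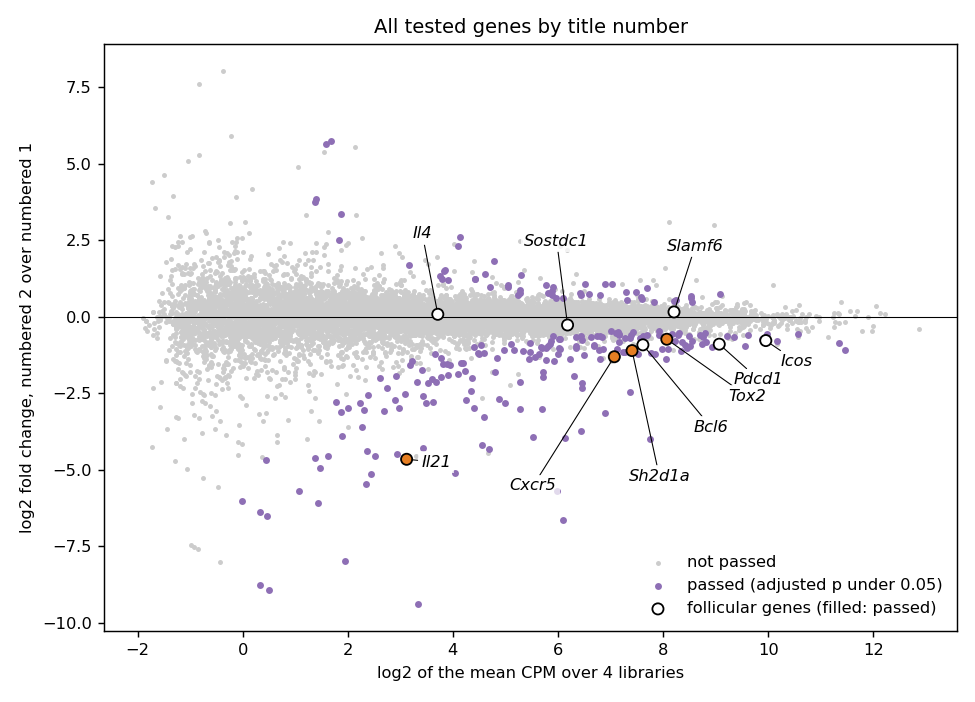
Log2 fold change of libraries numbered 2 over libraries numbered 1 against the log2 mean CPM of the 4 libraries, for all 13022 tested genes. Dark points passed (adjusted p under 0.05), and large circles are the 10 follicular genes, filled where they passed. Il21 lies far below the other members, and Cxcr5, Sh2d1a and Tox2 are filled while Bcl6, Pdcd1 and Icos beside them are not.

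Genes that act around the follicular programme were followed in 10 lists of 89 genes, 84 of them tested. Of these, 9 fell and 1 rose in Maf-low libraries, and 74 did not pass. The counts were 2 lower and 2 higher without wt 1, 3 and 2 without flox 1, 14 and 6 without wt 2, and 15 and 2 without flox 2. Il10, Pou2af1 and Nrn1 passed in each of these fits, Lag3 was lost without wt 1, and Egr2, Ascl2, Ctla4, Tigit, Slamf1 and Il1rn were lost without wt 1 and without flox 1. DESeq2 called 21 lower and 3 higher. By labelled genotype 0 of the 84 passed in edgeR, DESeq2 and limma-voom, and 3 had an unadjusted p under 0.05 in edgeR. In the comparison by number, 13.6% of all tested genes had an unadjusted p under 0.05 and their median log2 fold change was 0.01, against which the counts and medians of the lists below are to be read.

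Among 14 follicular transcription factors, 3 fell and the median was -0.36. In 12 of the 14 both Maf-low libraries lay below both Maf-high ones, and in the other 2 they lay above. Over all tested genes, 22.5% lay apart lower and 22.7% lay apart higher in this comparison. Pou2af1, a coactivator of Oct factors used by B cells and follicular T cells, had 3.82 CPM in flox 2 and 6.18 CPM in wt 2, against 33.3 CPM in flox 1 and 32.8 CPM in wt 1 (change -2.72, SE 0.25, adjusted p = 0.00674). Egr2, a zinc finger factor induced by the T cell receptor, had 257 CPM in flox 2 and 223 CPM in wt 2, against 419.9 CPM in flox 1 and 419 CPM in wt 1 (-0.80, SE 0.09, adjusted p = 0.0149). Ascl2, which promotes Cxcr5 expression, had 0 counts in flox 2 and 3 in wt 2, against 100 in flox 1 and 86 in wt 1 (adjusted p = 0.0380). The Ascl2 call was lost with the genotype label as a block (adjusted p = 0.0689) and in limma-voom (0.0507). These factors were low in both Maf-low libraries. Summed B cell markers, led by Cd79b and Cd22, were 60.5 CPM in flox 2 and 79.0 CPM in wt 2, against 116 CPM in flox 1 and 67.0 CPM in wt 1. Their part in the Pou2af1 difference was not tested.

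None of 10 opponents of the follicular programme passed in edgeR (4 with an unadjusted p under 0.05, median -0.14) or limma-voom, and DESeq2 called Foxo1 and Prdm1, both lower. Prdm1, which encodes the Bcl6 antagonist Blimp-1, had 83.2 CPM in flox 2 and 88.0 CPM in wt 2, against 118 CPM in flox 1 and 134 CPM in wt 1, with an adjusted p of 0.0551. Foxo1 and Klf2, factors of recirculating cells, lay lower in both Maf-low libraries with adjusted p of 0.103 and 0.217. The antagonists Bcl6 and Prdm1 thus had the same order between the Maf levels.

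Of 8 positioning receptors none passed in edgeR (1 with an unadjusted p under 0.05, median -0.20), DESeq2 or limma-voom. Selplg encodes PSGL-1, which follicular T cells carry at a low level, and had 788 CPM in flox 2 and 824 CPM in wt 2, against 694 CPM in flox 1 and 732 CPM in wt 1. S1pr2, a receptor that retains cells in germinal centres, had 36.8 CPM in flox 2 and 31.6 CPM in wt 2, against 38.8 CPM in flox 1 and 44.9 CPM in wt 1. Changes in this list lay between -0.45 and 0.18.

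In the list of 12 costimulatory and inhibitory surface proteins, Ctla4 and Tigit fell and the median was -0.14. Ctla4, the inhibitory receptor through which regulatory T cells restrain costimulation, had 2080.2 CPM in flox 2 and 1627 CPM in wt 2, against 3344 CPM in flox 1 and 3342 CPM in wt 1 (-0.85, SE 0.12, adjusted p = 0.0270). Tigit, another inhibitory receptor, had 97.2 CPM in flox 2 and 81.5 CPM in wt 2, against 139 CPM in flox 1 and 142 CPM in wt 1 (-0.65, SE 0.11, adjusted p = 0.0436). The Tigit call was lost with the genotype label as a block (adjusted p = 0.0541) and in limma-voom (0.0528). Btla, an inhibitory receptor shared by B and T cells, lay lower in both Maf-low libraries without passing, at 84.4 CPM in flox 2 and 103 CPM in wt 2, against 137 CPM in flox 1 and 132 CPM in wt 1. DESeq2 called Btla lower, and it called Pdcd1lg2 and P2rx7 higher.

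Of 7 tested SLAM family and SAP signalling genes, Slamf1 fell and the median was 0.03. Slamf1 had 144 CPM in flox 2 and 122 CPM in wt 2, against 199 CPM in flox 1 and 205 CPM in wt 1 (-0.60, SE 0.10, adjusted p = 0.0494). The call was lost with the genotype label as a block (adjusted p = 0.0698), in limma-voom (0.0554) and under relative log expression scaling (0.0503). Cd48 had a change of 0.32 (SE 0.08, adjusted p = 0.146) and Slamf7 one of 0.73 (SE 0.23, adjusted p = 0.225).

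None of 7 genes of ICOS and PD-1 signalling and Icos decay passed in edgeR (4 with an unadjusted p under 0.05, median 0.04), DESeq2 or limma-voom. Tbk1, a kinase that binds Icos, had 85.0 CPM in flox 2 and 103 CPM in wt 2, against 126 CPM in flox 1 and 117 CPM in wt 1. The phosphoinositide 3-kinase genes Pik3r1 and Pik3cd had changes of 0.35 and 0.22 with adjusted p of 0.268 and 0.317. Of 10 cytokine receptors and transducers none passed in edgeR (5 with an unadjusted p under 0.05, median 0.003) or limma-voom, and DESeq2 called Il6ra, Il6st, Il27ra and Il12rb1, all lower. Il27ra, Il12rb1 and Il6ra, receptor subunits for cytokines that act on follicular T cells, had changes of -0.41, -0.44 and -0.84 with adjusted p of 0.0762, 0.137 and 0.140.

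Follicular regulatory effector molecules held 3 genes that fell and 1 that rose among 8, with a median of -0.21. Il10, an anti-inflammatory cytokine, had 26.8 CPM in flox 2 and 24.5 CPM in wt 2, against 385 CPM in flox 1 and 429 CPM in wt 1 (-3.99, SE 0.11, adjusted p = 6.94e-05). Lag3, an inhibitory receptor, had 28.8 CPM in flox 2 and 26.3 CPM in wt 2, against 54.3 CPM in flox 1 and 67.0 CPM in wt 1 (-1.14, SE 0.14, adjusted p = 0.0187). Il1rn, the interleukin-1 receptor antagonist, had 2.56 CPM in flox 2 and 1.88 CPM in wt 2, against 11.8 CPM in flox 1 and 10.5 CPM in wt 1 (-2.33, SE 0.30, adjusted p = 0.0197).

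Nrn1 was the 1 gene of the 10 lists that edgeR and limma-voom called higher by number. It encodes neuritin, which follicular regulatory T cells release, and it rose to 39.8 CPM in flox 2 and 46.1 CPM in wt 2, against 9.26 CPM in flox 1 and 14.8 CPM in wt 1 (1.84, SE 0.24, adjusted p = 0.0218). This gene was named after its values were seen. Nrn1 and Il21, both follicular genes by their list, thus moved in opposite directions between the Maf levels.

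None of 3 tested genes among the other T cell cytokines passed in edgeR (1 with an unadjusted p under 0.05, median -0.77) or limma-voom, and DESeq2 called Il17a, lower. Il17a had 0.919 CPM in flox 2 and 0.593 CPM in wt 2, against 4.59 CPM in flox 1 and 3.50 CPM in wt 1 (adjusted p = 0.0814). Ifng had 20.7 CPM in flox 2 and 6.08 CPM in wt 2, against 5.37 CPM in flox 1 and 4.28 CPM in wt 1 (adjusted p = 0.395). Il22 passed in neither grouping, with 62 counts in flox 2 and 13 in wt 2, against 135 in flox 1 and 14 in wt 1. Its change by label, flox over wt, was 2.68 (SE 0.54, unadjusted p = 0.00366 in edgeR). Both libraries labelled flox had more counts than either labelled wt. Of 5 tested Wnt and BMP pathway genes, on which Sostdc1 acts, none passed in edgeR (2 with an unadjusted p under 0.05, median -0.42), DESeq2 or limma-voom. Bmpr1a, Lrp6 and Axin2 had adjusted p of 0.194, 0.217 and 0.713.

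**Figure D4:**
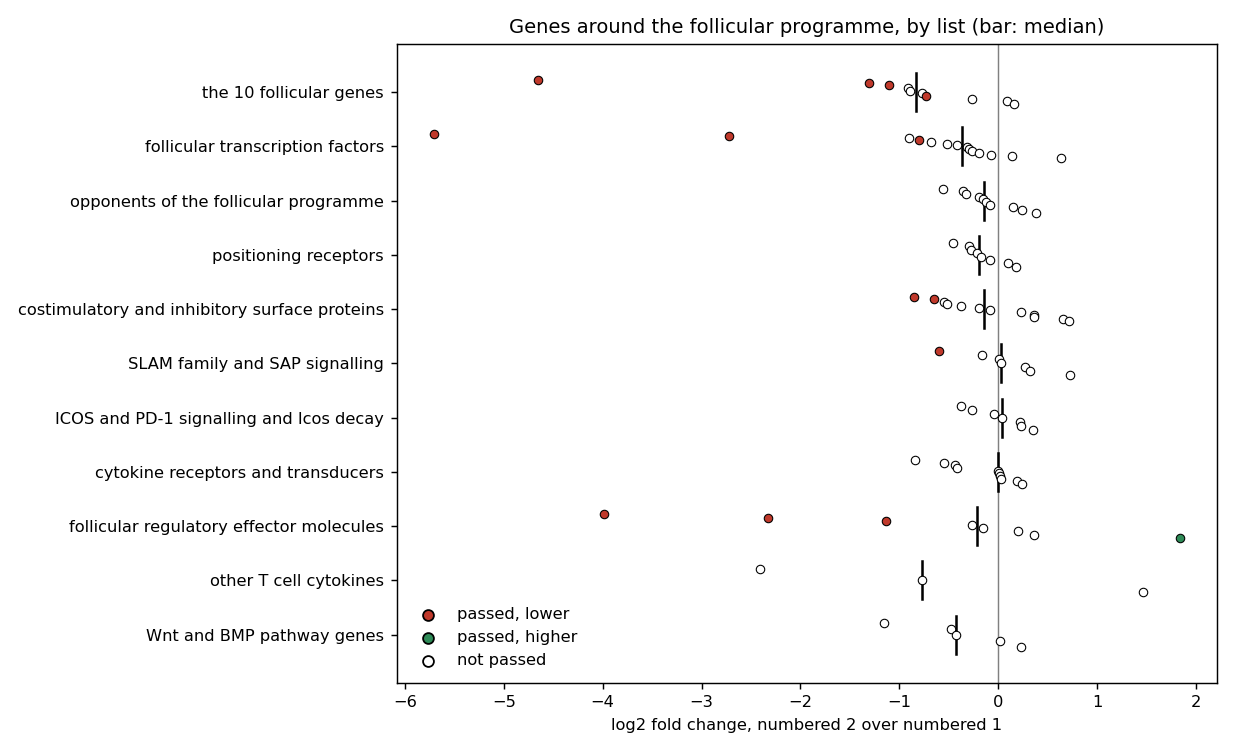
Log2 fold change of libraries numbered 2 over libraries numbered 1 for the 10 follicular genes and for the tested genes of 10 lists, 1 point per gene, with a bar at each list's median. Filled points passed, and the fitted value of Ascl2, at the far left of the follicular transcription factors, rests on 0 and 3 counts in the Maf-low libraries. The median of the 10 genes is -0.83, and the medians of the lists range from -0.77 to 0.04.

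Each list of markers of other cells had counts in all libraries. No marker was at 0 in all 4, but some were at 0 in individual libraries, such as Csf1r in wt 1. The epithelial marker Epcam reached 140 CPM in wt 2, where Foxp3 had 104 CPM. The germinal centre B cell list summed to 90.5 CPM in flox 2 and 76.0 CPM in wt 2, against 110 CPM in flox 1 and 107 CPM in wt 1, led by Fas and S1pr2, which T cells also express. The plasma cell list, led by Sdc1 and Igj, summed to 8.17 CPM in flox 2 and 24.6 CPM in wt 2, against 29.2 CPM in flox 1 and 16.1 CPM in wt 1. The follicular dendritic and stromal list, led by Cr2 and Col1a1, summed to 4.35 CPM in flox 2 and 3.81 CPM in wt 2, against 6.64 CPM in flox 1 and 5.93 CPM in wt 1. Of these, the germinal centre B cell and the follicular dendritic lists had the same order as the 7 lower follicular genes, and their part in those differences was not tested. Without Cr2 the follicular dendritic and stromal sums overlapped, at 3.19 CPM in flox 2 and 2.67 CPM in wt 2, against 3.03 CPM in flox 1 and 1.46 CPM in wt 1.

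The CD8 T and natural killer cell list summed to 90.4 CPM in flox 2 and 68.6 CPM in wt 2, against 50.5 CPM in flox 1 and 44.4 CPM in wt 1. Klrb1c, its leading gene ahead of Cd8b1, rose to 68.5 CPM in flox 2 and 44.9 CPM in wt 2, against 21.3 CPM in flox 1 and 22.6 CPM in wt 1 (1.37, SE 0.21, adjusted p = 0.0368, and 0.227 without wt 1, 0.194 without flox 1 and 0.0617 in limma-voom). Without Klrb1c the list summed to 21.9 CPM in flox 2 and 23.6 CPM in wt 2, against 29.2 CPM in flox 1 and 21.8 CPM in wt 1, which overlap. Myeloid markers, led by Lyz2 and C1qc, summed to 55.1 CPM in flox 2 and 58.6 CPM in wt 2, against 95.4 CPM in flox 1 and 9.19 CPM in wt 1. Epithelial markers, led by Epcam and Krt8, summed to 273 CPM in flox 2 and 356 CPM in wt 2, against 362 CPM in flox 1 and 152 CPM in wt 1. Neither of the last 2 followed the Maf level. The identity list, with Ctla4 and Cd3e the most abundant, summed to 5513 CPM in flox 2 and 4997 CPM in wt 2, against 6526 CPM in flox 1 and 6784 CPM in wt 1. Without Ctla4 the sums overlapped, at 3433 CPM in flox 2, 3371 in wt 2, 3182 in flox 1 and 3442 in wt 1. Of the 7 genes of the identity list Ctla4 passed, with the values above.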

How the data were processed

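The genome build was mm10 and the tools were HTSeq 0.6.1, TopHat2 2.1.1 and edgeR 3.14, per the submitters' processing notes. For the annotation and strandedness, the sources used here give nothing. Per the labels' protocols, about 40000 cells per sample were lysed in Trizol, RNA was cleaned with a column kit, and a Clontech ultra-low input kit was used for libraries.

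The authors deposited raw counts per gene symbol. The 5 counter summary rows held 66.6% to 67.2% of each column total and entered neither library sizes nor tests. In 27 rows the symbol had become a date. A second table that the authors deposited held normalized values for fewer genes, treated as a signal and not tested. All 42472 of its values (100%) were within a relative error of 1e-06 of edgeR pseudo-counts computed here with libraries grouped by number, against 3.25% when grouped by labelled genotype and 3.4% under the remaining grouping.

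Groups came from the genotype and the number in the titles. The labels' replicate field, which numbers the genotypes (1 for wt, 2 for flox) and not the libraries, was ignored. The members and lists were chosen with earlier results of these data known. The tests used edgeR 4.0.16 in R 4.3.3 (filterByExpr, TMM, robust glmQLFit, glmQLFTest, Benjamini-Hochberg adjustment over 13022 genes), and SE is the absolute log2 fold change over the square root of F. An exact permutation test of 2 libraries against 2 reaches at best a two-sided p of 0.333 and was not used. Intervals are 95% exact Poisson for counts and exact binomial for ratios. The tests were also run on counts simulated from these fits with independent libraries. Such counts cannot check how the tests behave on the spread of the real libraries.

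All members are named, with Maf and Foxp3, and up to 3 genes per pathway list by smallest unadjusted p in the fit by number. The 2 most abundant genes of each marker list are named too, except for heat shock, where only the sum is given. 1 gene that this rule names is not reported here. Of 62 marker symbols, 3 had no row. Alternatives were DESeq2 1.42.0, limma-voom (limma 3.58.1), relative log expression scaling, 2 other filters, blocks and leaving out each library.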

Additional observations from a re-analysis of the deposited data

Results flagged for a closer look

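Il4 and Sostdc1 moved in opposite directions within the labels. Il4 in flox 2 was 1.29 times its level in flox 1 (95% counting interval 1.11 to 1.51), and in wt 2 it was 0.817 times its level in wt 1 (0.676 to 0.986). Scaled by gene totals without TMM, the Il4 ratio within wt was 0.877 (0.726 to 1.06), an interval that includes 1. Sostdc1 in flox 2 was 1.11 times its level in flox 1 (1.05 to 1.19), and in wt 2 it was 0.537 times its level in wt 1 (0.494 to 0.585). With 1 library per Maf level in each label, these differences between labels were not tested. Of 13003 tested genes with a direction in both labels, 40.9% moved in opposite directions, against 20.0% of the 10 members, which are these 2 genes.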

How the results depend on the processing

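By number, DESeq2 called 640 genes (189 higher, 451 lower) and 7 members, adding Bcl6, Pdcd1 and Icos, and the fit with no filter on low counts called 589 genes (186 higher, 403 lower), against 236 (52 higher, 184 lower) and 4 members as reported. Pathway genes that passed were 21 lower and 3 higher in DESeq2, 6 and 1 in limma-voom, 18 and 3 with no filter, and 9 and 1 as reported. Leaving out 1 library gave 46 to 525 genes (5 to 173 higher, 41 to 401 lower), 1 to 8 members, and 2 to 15 lower and 2 to 6 higher pathway genes. The causes were not tested. Limma-voom, relative log expression scaling, no filter and a CPM of at least 1 in 2 libraries kept 4 members. Il4 ranged from -0.33 to 0.41 and Sostdc1 from -0.93 to 0.19, each changing sign.

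By labelled genotype, DESeq2 called 12 genes (9 higher, 3 lower), limma-voom 0 (262 with an unadjusted p under 0.05), no filter 2 (both higher) and each fit without 1 library 0 (202 to 430 with an unadjusted p under 0.05), against 1 as reported. Il21 changed sign in limma-voom (0.63). Without 1 library, members changed sign within these ranges of the log2 fold change: Bcl6 -0.32 to 0.90, Tox2 -0.53 to 0.37, Cxcr5 -0.58 to 1.04, Pdcd1 -0.36 to 0.84, Icos -0.11 to 0.84, Sh2d1a -0.76 to 0.55 and Il21 -3.32 to 4.46. With the replicate block the label comparison called 1 gene (515 with an unadjusted p under 0.05, against 258) and no member, and Il21 turned to 0.18. Deviations of flox 1 and wt 1 from their label means correlated at r = 0.264 across 13022 genes, which are not independent, and 2 pairs do not show that the numbers pair the samples.

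Scaling by gene totals without TMM moved 7 within-wt ratios by more than their counting interval and turned no direction. Depth limits Il21, with 7 and 20 counts in the Maf-low libraries, and 2 libraries per group limit every test.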

Other observations

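Within the Maf-low pair, Bcl6, Cxcr5, Pdcd1 and Icos in flox 2 were 1.46, 1.36, 1.41 and 1.41 times their levels in wt 2. The summed heat shock genes also differed within this pair, at 9347 CPM in flox 2 and 2943 CPM in wt 2, and their part in these ratios was not tested. In the Maf-high pair the ratios of flox 1 to wt 1 were 0.970, 0.898, 0.939 and 1.12 for the same genes. For the secreted members the ratios of flox 2 to wt 2 were 2.17 for Sostdc1 (95% counting interval 2.00 to 2.35), 1.68 for Il4 (1.41 to 2.00) and 2.79 for Il21 (1.14 to 7.82). Tox2, Slamf6 and Sh2d1a had ratios below 1, with 0.861, 0.829 and 0.899. Cd40lg, the ligand through which helper T cells license B cells, had 149 CPM in flox 2 and 84.8 CPM in wt 2, against 156 CPM in flox 1 and 187 CPM in wt 1, and was looked up after these values were seen. These ratios compare single libraries and have no replicate check.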
